A study of Jatropha curcas with 31 samples.

Results

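Diacylglycerol acyltransferase (DGAT) joins a fatty acyl group from acyl-CoA to diacylglycerol and so makes triacylglycerol, the storage oil of seeds. In Jatropha curcas, an oil-seed shrub, the enzyme annotation of the study assigned it to a small set of contigs, which are transcripts assembled from seed RNA. These were contig00653, contig04042, contig07701, contig07953, contig14653 and contig16458, which is 6 of the 19838 contigs and 23 of the 57842 probes on the array. The members were taken by contig name, and every probe that began with such a name was kept. The array carried probes in both directions along a contig. Those at a start position of 0 or a multiple of 500 bases were read as sense to the assembled contig (14 of the 23), and those in between, at 250, 750 or 1250, as antisense (9 of the 23).

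Plants hold several unrelated kinds of DGAT. DGAT1 and DGAT2 are membrane enzymes of the endoplasmic reticulum that do not resemble each other in sequence, DGAT3 is soluble, and a further family combines wax ester synthase and DGAT activity (WSD in Arabidopsis). DGAT1 is known in Arabidopsis as a main determinant of seed oil, and in leaves triacylglycerol synthesis takes up surplus acyl groups, for instance during senescence or stress. Of the members, contig00653 was tied by the transcript comparison of the study to LOC105643333 and to a description as an O-acyltransferase of the WSD1-like kind. For the other 5 contigs the tables used here gave the enzyme name without the family, and no family is assigned to them below. contig00653 was the longest member at 1762 bases, followed by contig07701 (1572 bases), contig07953 (810 bases), contig14653 (649 bases), contig04042 (263 bases) and contig16458 (243 bases).

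Whole seeds of 1 selected plant grown in Ethiopia had been sampled at 6 maturation stages, which the labels name by colour as green-white (I), green-half (II), green-black (III), yellow (IV), brown (V) and dry (VI). The numerals follow the methods of the study, where stage II is called by another colour and was matched by elimination. There were 3 arrays for each of stages I, III and IV and 4 for each of the other stages. Leaves of an accession that is toxic and of one that is not had 5 arrays each, for 31 arrays in all. The arrays carried Cy3-labelled complementary RNA (cRNA) made from total RNA. No treatment was applied to any group, and the labels gave neither the age of the leaves nor the plants they came from. The methods state biological replicates but the labels do not say which arrays came from separate seed lots or leaves, so the tests below measure the spread between these arrays. Values are log2 intensities normalized across all arrays, on which 1 unit is a doubling, and a probe was counted as detected on an array where the scanner software called it well above background. Where 1 probe stands for a contig, it is the one whose seed arrays had the highest mean, called the representative probe. Differences were tested with limma in 1 fit of 8 group means, and adjusted p is the Benjamini-Hochberg value over all 57842 probes, with 0.05 as the threshold.

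Between 47.9% and 69.6% of spots were well above background per array, and arrays of a group correlated with r from 0.884 to 0.985. Seed storage markers fell in leaf for 4 of 5 contigs (2 oleosins and 2 vicilins). The late embryogenesis abundant contig00783 was at 11.2 to 18.4 on the leaf arrays and did not pass. Leaf markers of photosynthesis rose in leaf for 9 of 10 contigs, the exception being the Rubisco-annotated contig04560, which fell. The arrays lay on 4 slides. Slides 1 to 3 held each group once, and slide 4 held 1 array each of stages II, V and VI and 2 of each leaf group and was scanned on another day. The 7 arrays of slide 4 deviated together from their group means (mean pairwise r of 0.590 over all probes, against 0.0953 to 0.254 on the others), so values with slide as a block, or within slides, are given where they differ.

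All 6 contigs gave a signal above background on at least 1 array, but they differed widely in where. In seed, 4 contigs (contig00653, contig04042, contig07701 and contig14653) were detected on all 21 arrays. In leaf, 3 contigs (contig04042, contig07701 and contig07953) were detected on all 10 arrays. contig16458 was detected on 2 of the 31 arrays. Over the 6 seed stages, 3 of the 6 contigs changed by their representative probes (contig00653, contig04042 and contig07953), beside 64.9% of all representative probes. contig07701 is not among them, although its sense probes at positions 1000 and 1500 changed (adjusted p = 0.00165 and 8.99e-05). Counted over every probe, 12 of 23 changed, beside 46.6% of all probes. At the threshold of 1e-08 used in the methods, contig00653 and contig04042 changed, beside 10.6% of representative probes. Change with stage was thus common on this array, and the counts of members are read against these shares.

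**Figure D1:**
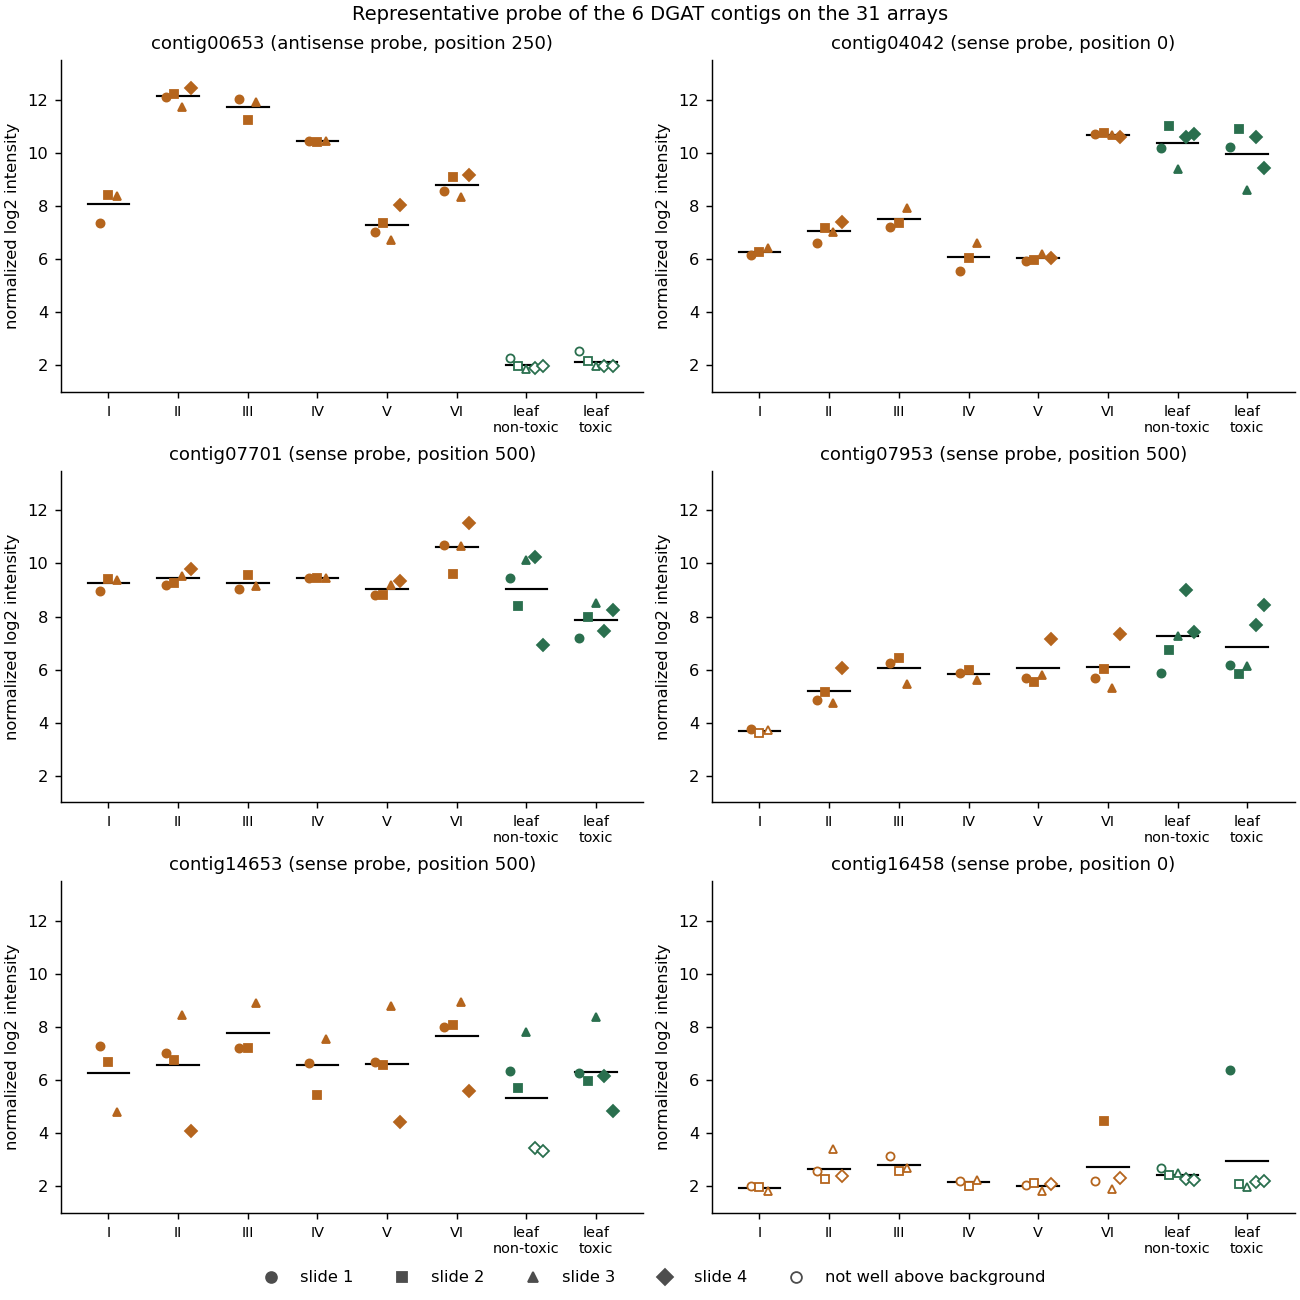
Normalized log2 intensity of the representative probe of each of the 6 contigs (y axis) on the 31 arrays, by seed stage and leaf group (x axis). Points are arrays with the slide as symbol and open points where the probe was not well above background, and the horizontal line is the group mean. contig00653 peaks at stages II and III and is near 2 on all leaf arrays, contig04042 is high at stage VI and in leaf, and contig14653 is spread by slide.

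The contig with the widest range was contig00653, the WSD1-like contig. It was most abundant at stages II and III, fell to its lowest mean at the brown stage and, by its representative probe, was not detected in leaf. Its representative probe, at position 250, was antisense to the contig. Because the contig was assembled in reverse to the annotated coding sequence of LOC105643333, a probe antisense to the contig runs in the direction of the coding strand, and the 3 antisense probes are the ones read as the gene here. At stage I the probe measured 7.38, 8.42 and 8.39. At stage II it measured 12.10, 12.24, 11.74 and 12.45, and at stage III 12.05, 11.24 and 11.92. At stage IV the 3 arrays lay close together, at 10.44, 10.42 and 10.47.

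The contig then fell steeply. At stage V it measured 7.01, 7.36, 6.71 and 8.04, and in dry seed at stage VI 8.57, 9.10, 8.34 and 9.18. Stages II and III overlapped each other and lay above all other stages, and stage VI lay above stage V on every array. On the 10 leaf arrays the lowest value was 1.88, the median 1.98 and the highest 2.53, with none well above background. No seed array came near the leaf arrays.

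From stage I to II contig00653 rose 16.8-fold (log2 difference 4.07, SE 0.29, adjusted p = 7.6e-10). From II to III the difference of -0.40 (SE 0.29) did not pass (adjusted p = 0.431). It fell 2.45-fold from III to IV (-1.29, SE 0.31, adjusted p = 0.00701) and 8.97-fold from IV to V (-3.17, SE 0.29, adjusted p = 3.8e-07). From V to VI it rose 2.86-fold (1.52, SE 0.27, adjusted p = 0.000126). The order of the stages was therefore II, III, IV, VI, I and V, in which the neighbours II and III, VI and I (0.74, SE 0.29, adjusted p = 0.056) and I and V (adjusted p = 0.0527) did not differ beyond the threshold. The difference between VI and I stood at the edge and passed without stage I replicate 2 or 3, stage III replicate 2, stage V replicate 3 or 4, or stage VI replicate 3 (adjusted p = 0.0293 to 0.0483). Within the single slides the rise from I to II was 3.35 to 4.72 on 3 slides and the rise from V to VI 1.14 to 1.74 on 4 slides. In whole seeds and leaves, fewer cells that express a gene and less of its RNA per cell cannot be told apart.

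Against leaf, contig00653 was higher over the seed stages (log2 difference of leaf minus seed -7.68, SE 0.15, adjusted p = 1.21e-23). The fold depends on how signal near background is treated. It was 157 with the seed mean set against the dimmest detected signal of each leaf array, or the probe's own value where higher. Such a fold is not a lower limit, since position 1250 of this contig reached 4.30 in leaf without being detected. Set in the same way, stage II alone was 825-fold and stage V, the lowest seed stage, 28.5-fold above leaf. The same direction held on each of the 4 slides (-7.93 to -7.19). With normexp background correction the log2 difference was -3.91.

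The other probes of contig00653 divided by direction. The antisense probes at positions 750 and 1250 were detected on all 21 seed arrays and followed the representative probe closely (r of 0.96 and 0.95 over the 31 arrays, which share the contig and the arrays). Position 750 rose by 3.66 (SE 0.67) from stage I to II and fell 13.9-fold (SE 0.67 on the log2 scale) from IV to V. Position 1250 rose by 4.27 (SE 0.50) and fell by 3.12 (SE 0.50) over the same steps. In leaf, position 1250 was detected on 0 of 10 arrays and position 750 on 1, a non-toxic array at 5.99. Position 750 had a mean of 8.41 over the seed arrays and 2.79 in leaf, and position 1250 of 7.85 and 3.34.

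The 4 sense probes of contig00653 were dim. Position 0 was detected on 1 array in all, and positions 500 and 1000 on 4 and 2 seed arrays. Position 1500 was detected on 8 seed arrays, namely all 4 of stage II (4.86 to 5.62), all 3 of stage III (5.30 to 5.67) and 1 of stage IV. It rose from stage I to II (adjusted p = 1.43e-08) and fell again by stage V, as did the antisense probes of the same contig. Set as above against the dimmest detected signal of the stage I arrays, the rise was 9.01-fold, which is not a lower limit.

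**Figure D2:**
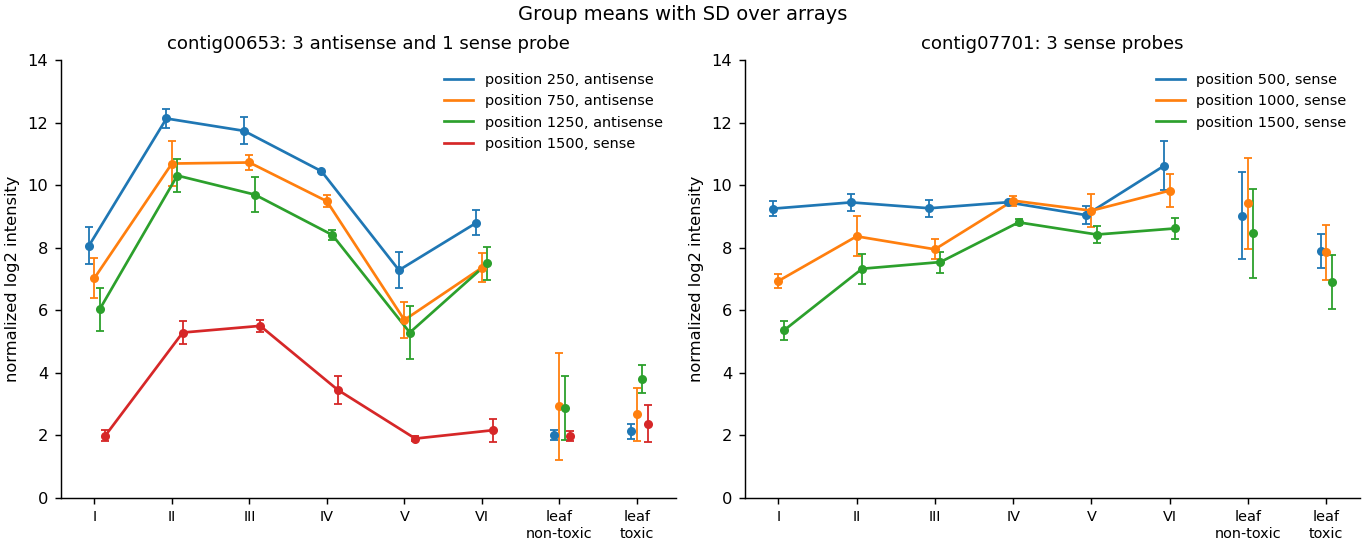
Mean normalized log2 intensity (y axis) with the SD over arrays for the probes of contig00653 and contig07701 that were detected most, by seed stage and leaf group (x axis), with seed stages joined by lines. The 3 antisense probes of contig00653 share one course with a peak at stages II and III, while the sense probes of contig07701 part at stage I, where position 500 is already at 9.25 and position 1500 at 5.35.

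contig04042 had another course. It was low through stages I to V and high in dry seed and in leaf. It had 1 probe, in sense direction, which was well above background on all 31 arrays. At stage I it measured 6.16, 6.25 and 6.41, at stage II 6.61, 7.19, 7.04 and 7.41, and at stage III 7.22, 7.36 and 7.93. At stage IV it measured 5.58, 6.06 and 6.61 and at stage V 5.93, 5.98, 6.19 and 6.06. All 4 dry-seed arrays then lay between 10.61 and 10.74, with no overlap with any earlier stage.

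The rise from stage V to VI was 25.0-fold (log2 difference 4.65, SE 0.37, adjusted p = 5.26e-10), and it was 4.51 to 4.77 within each of the 4 slides. Between stages I and VI the rise was 21.3-fold (4.41, SE 0.40, adjusted p = 1.1e-09). Before that the contig moved little. Stage III was 2.34-fold above stage I (adjusted p = 0.0351), and from III to IV it fell 2.68-fold (adjusted p = 0.0285), a call lost without stage III replicate 2 or 3 or stage IV replicate 1 or 2 (adjusted p = 0.0528 to 0.144) and with normexp background correction (-0.84, adjusted p = 0.141). Stages I, IV and V did not differ from each other beyond the threshold.

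In leaf, contig04042 measured 8.61 at the lowest, 10.41 at the median and 11.00 at the highest of 10 arrays. These values overlapped those of dry seed and lay above every array of stages I to V. Leaf was higher than the mean of the seed stages (7.45-fold, 2.90, SE 0.20, adjusted p = 1.79e-12). Against stage V alone it was 17.5-fold higher (adjusted p = 1.66e-11), whereas leaf and stage VI differed by -0.52 (SE 0.31, adjusted p = 0.196). The spread in leaf (SD 0.62 and 0.94 in the non-toxic and the toxic group) was wider than in dry seed (SD 0.05).

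contig07701 was detected throughout, and its representative probe held nearly level up to stage V. That sense probe, at position 500, was well above background on all 31 arrays. From stage I to V it stayed between 8.81 and 9.79, and at stage VI it measured 10.70, 9.61, 10.65 and 11.52. The stage VI arrays overlapped stage II and lay above all arrays of stages I and V. The rise from V to VI was 2.99-fold (1.58, SE 0.48, adjusted p = 0.0186) and that from I to VI 2.59-fold (1.37, SE 0.52, adjusted p = 0.0438), while the test over the 6 stages did not pass (adjusted p = 0.09). The I to VI call was a narrow one. It was lost without any 1 of the 3 arrays of stage I, without stage VI replicate 1, 3 or 4, and without stage II replicate 2, stage III replicate 3 or stage IV replicate 1 or 3 (adjusted p = 0.05 to 0.142). The V to VI call was lost without stage V replicate 1 or 2 or stage VI replicate 4 (adjusted p = 0.0512 to 0.0778). Scaling to the 75th percentile ended both calls (1.41 and 1.52, adjusted p = 0.0922 and 0.073).

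The sense probes at positions 1000 and 1500 of contig07701 described another course. Position 1000 measured 6.70, 6.92 and 7.17 at stage I and 9.34, 9.67 and 9.51 at stage IV. Position 1500 measured 5.24, 5.13 and 5.68 at stage I and 8.70, 8.84 and 8.88 at stage IV. Their rise from I to IV was 5.94-fold (adjusted p = 0.00292) and 11.0-fold (adjusted p = 5.13e-05), where position 500 differed by 0.20 (SE 0.56). Between I and VI positions 1000 and 1500 rose 7.42-fold (adjusted p = 0.000297) and 9.61-fold (adjusted p = 2.72e-05). They correlated with each other at r = 0.94 over the 31 arrays and with position 500 at 0.65 and 0.54.

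The unequal change can be read within arrays. The difference of position 1500 from position 500 was -3.90 ± 0.33 (SD, n = 3) at stage I and -1.45 ± 0.77 (SD, n = 18) on the other seed arrays, without overlap. Position 1000 gave -2.31 ± 0.15 (SD, n = 3) and -0.60 ± 0.68 (SD, n = 18), also without overlap. These 2 differences were chosen after the values had been seen and are given as a description.

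In leaf, the representative probe of contig07701 measured 6.94 at the lowest, 8.31 at the median and 10.23 at the highest of 10 arrays. Leaf was 2.08-fold below the mean of the seed stages (-1.06, SE 0.26, adjusted p = 0.00139) and 4.49-fold below stage VI (adjusted p = 7.21e-05). The difference between leaf and stages I to V did not pass for any single stage (adjusted p = 0.0616 to 0.278). The sense probes at 1000 and 1500 were at 8.63 and 7.68 in leaf against 8.70 and 7.74 in seed, with no difference that passed. With the mean of all sense probes in place of the representative, the leaf difference was -0.41 (adjusted p = 0.103) and the rise from V to VI 0.69 (adjusted p = 0.205).

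Antisense signal on contig07701 was strong at 1 position. Position 250 was detected on 30 of 31 arrays, from 7.18 to 11.12 in seed and from 3.77 to 10.13 in leaf. The limma test over the stages did not pass without slide (adjusted p = 0.918) and passed narrowly with slide as a block (adjusted p = 0.048). In leaf, position 250 fell by 1.79 (SE 0.56, adjusted p = 0.00938) in the fit without slide. Slide 4, where this probe was low, held a larger share of the leaf than of the seed arrays, so that value mixes tissue with slide. On slides 1 to 3 the leaf arrays measured 7.81 to 10.13 and the seed arrays 8.19 to 11.12. On slide 4 the leaf arrays measured 3.77 to 6.90 and the seed arrays 7.18 to 8.28. Positions 750 and 1250, also antisense, were detected on 15 and 23 arrays and stayed under 6, and sense position 0 was detected on 10. No source used here gives the strand of this contig relative to a gene.

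contig07953 was higher in leaf than over the mean of the seed stages and was near background in the youngest seed. In the fit without slide, leaf was called higher against stages I and II singly and not against the later stages. Its representative sense probe, at position 500, measured 3.75, 3.63 and 3.72 at stage I and was well above background on 1 of those 3 arrays. At stage II it measured 4.84, 5.18, 4.75 and 6.05, at stage III 6.25, 6.43 and 5.47, and at stage IV 5.88, 6.0 and 5.61. At stage V it measured 5.68, 5.52, 5.82 and 7.17 and at stage VI 5.70, 6.04, 5.29 and 7.33. Every array from stage II on lay above the stage I arrays, and from stage III on the stages overlapped.

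From stage I to III contig07953 rose 5.11-fold (2.35, SE 0.66, adjusted p = 0.00913) and from I to VI 5.25-fold (2.39, SE 0.62, adjusted p = 0.00308). With normexp background correction the latter was 0.78 and did not pass (adjusted p = 0.148). Within the single slides the rise from I to VI was 1.58 to 2.41 on 3 slides. No step between neighbouring stages passed. The highest value of stages II, V and VI was in each case the array on slide 4. With slide as a block the error became smaller, and the steps from I to II (2.15-fold, SE 0.33 on the log2 scale, adjusted p = 0.0331) and from II to III (adjusted p = 0.00724) were then called as well. The test over the stages changed from an adjusted p of 0.015 to 1.61e-05 with the block.

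On the 10 leaf arrays contig07953 measured 5.84 at the lowest, 7.00 at the median and 9.02 at the highest. It was higher in leaf than over the seed stages (2.96-fold, 1.57, SE 0.31, adjusted p = 0.000123) and 10.2-fold higher than at stage I (adjusted p = 1.31e-05). Both values are from the fit without slide. Slide 4, on average 1.07 above the group means at this probe, held arrays of both leaf groups but none of stage I. Within the single slides leaf minus seed was 0.68 to 1.58 on 4 slides. Leaf was also called higher than stage II, but not than stage III, IV or V. Leaf and stage VI overlapped (0.96, SE 0.48, adjusted p = 0.115), but the difference passed when slide was fitted as a block (0.72, adjusted p = 0.0226) and without stage VI replicate 4 (1.37, adjusted p = 0.031). The second sense probe, at position 0, had the same direction. It was not detected on any of the 10 arrays of stages I to III and was detected on all 11 of stages IV to VI and on all 10 of leaf. Its rise from I to IV (adjusted p = 0.000499) was 7.72-fold against the dimmest detected signal of the stage I arrays. That is not a lower limit, since the probe reached 4.51 at stage III without being detected. The log2 difference of leaf minus seed was 1.81 (SE 0.29, adjusted p = 6.23e-06), with the probe detected on 11 of the 21 seed arrays. The antisense probes at 250 and 750 were each detected on 2 arrays.

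The representative probe of contig14653 gave no stage or tissue difference that passed in the fit over all arrays without slide, but its values differed by slide. The calls for stage VI against stage I and against leaf changed where slide was fitted as a block. In sense direction at position 500, it measured 7.30, 6.67 and 4.78 at stage I and 8.01, 8.07, 8.95 and 5.61 at stage VI. It was detected on all 21 seed and on 8 of 10 leaf arrays, where it measured 3.34 at the lowest, 6.06 at the median and 8.37 at the highest. On average the arrays of slide 3 lay 1.32 above and those of slide 4 1.76 below their group means. All groups overlapped. Fitted with slide as a block, stage VI exceeded stage I by 2.07 with an SE of 0.61 in place of 1.13, and this was called (2.66-fold in the fit without the block, adjusted p = 0.397, against adjusted p = 0.00811 with it). Within the slides it was 0.71, 1.40 and 4.17, the last resting on the stage I array of slide 3 at 4.78. Leaf was below stage VI in the fit with the block (-1.44, adjusted p = 0.0135) and not in the fit without it (-1.84, adjusted p = 0.0969). Without the block it passed on leaving out stage VI replicate 4 or non-toxic leaf replicate 3 (adjusted p = 0.0325 and 0.0419). Leaf against seed did not pass with all arrays (-1.08, adjusted p = 0.118) and passed without that leaf array (-1.40, adjusted p = 0.0407) and with the mean of the sense probes (-0.80, adjusted p = 0.0499). It did not pass with slide as a block or on slides 1 to 3 alone. Within slides 1 to 4 leaf minus seed was -0.85, -0.95, 0.19 and -0.26, so its sign was not the same on every slide. In the deposited log2 table all 3 differences passed, namely stage VI minus I (1.87, adjusted p = 0.0107), leaf minus seed (-0.91, adjusted p = 0.0103) and leaf minus stage VI (-1.90, adjusted p = 0.000884). There slide 4 hardly deviated from the group means and no slide term was fitted. The p-values from that table may therefore be too small and are not separate support. On slides 1 to 3 alone stage VI minus I passed (1.92, adjusted p = 0.0483).

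The same slide pattern was seen in the antisense probe of contig07701 at position 250 (above the group means on slide 3 and 1.80 below them on slide 4). Those 2 were the only members at least 1 above the group means on slide 3 and 1 below on slide 4, a pattern held by 1.47% of all probes. Over the 31 arrays the pair correlated at r = 0.74. In the deposited log2 table the deviation of slide 4 was at most 0.11 in size for all 23 member probes, and the deviation of slide 3 remained at 0.79 for contig14653 and 1.00 for contig07701. A correction of slide 4 is not described in the sources used here.

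**Figure D3:**
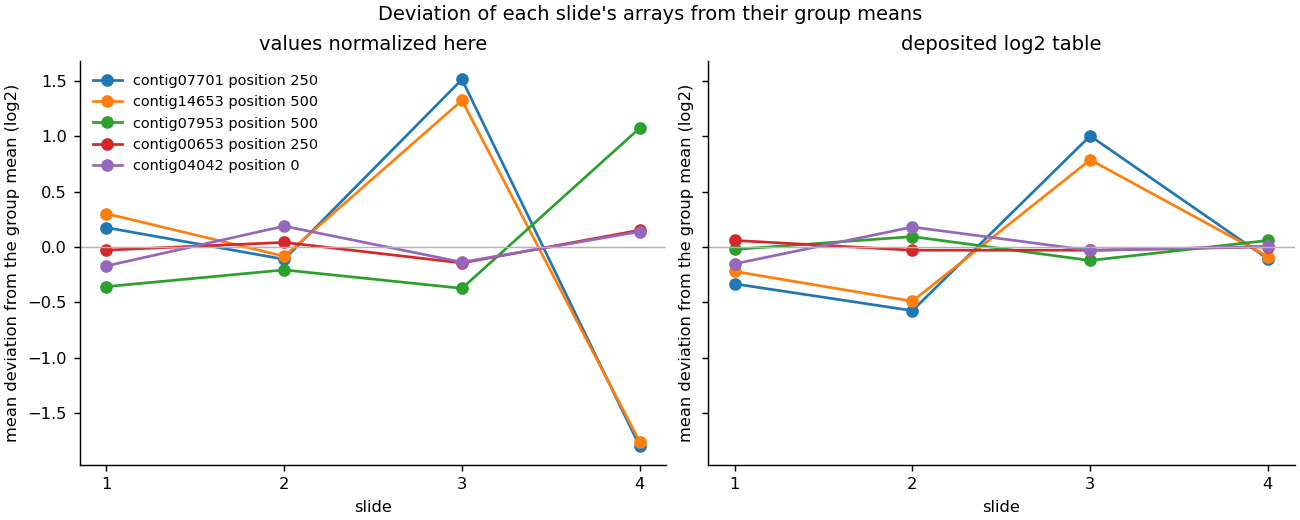
Mean deviation of the arrays of each slide from their group means (y axis, log2) on slides 1 to 4 (x axis) for 5 probes, in the values normalized here (left) and in the deposited table (right). contig14653 and the antisense probe of contig07701 are high on slide 3 and low on slide 4 on the left, contig07953 is high on slide 4, and contig00653 and contig04042 stay within 0.2 of their group means.

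The antisense probe of contig14653, at position 250, did divide tissue and stage. It was detected on 15 of 21 seed arrays and on 0 of 10 leaf arrays. At stage I it measured 5.80, 5.27 and 5.78, at stage III 2.36, 4.56 and 3.96 with none well above background, and at stage V 5.52, 5.82, 5.72 and 6.69. Stage III lay below stages I and V without overlap, and the probe differed over the stages (adjusted p = 0.0067). Seed was above leaf (adjusted p = 2.03e-06), by 3.28-fold against the dimmest detected signal of the leaf arrays. That is not a lower limit, since the probe reached 4.45 in leaf without being detected. The sense probe at position 0 stayed between 3.01 and 6.04 on all arrays and did not differ over the stages (adjusted p = 0.955).

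contig16458, the shortest member, was at the edge of detection. Its only probe was not well above background on 29 of 31 arrays, where it lay between 1.81 and 3.41. It measured 4.45 on 1 dry-seed array and 6.38 on 1 leaf array of the toxic accession, the 2 arrays on which it was detected. No stage or tissue difference passed. Its level was not detectable in these samples apart from those 2 arrays.

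**Figure D4:**
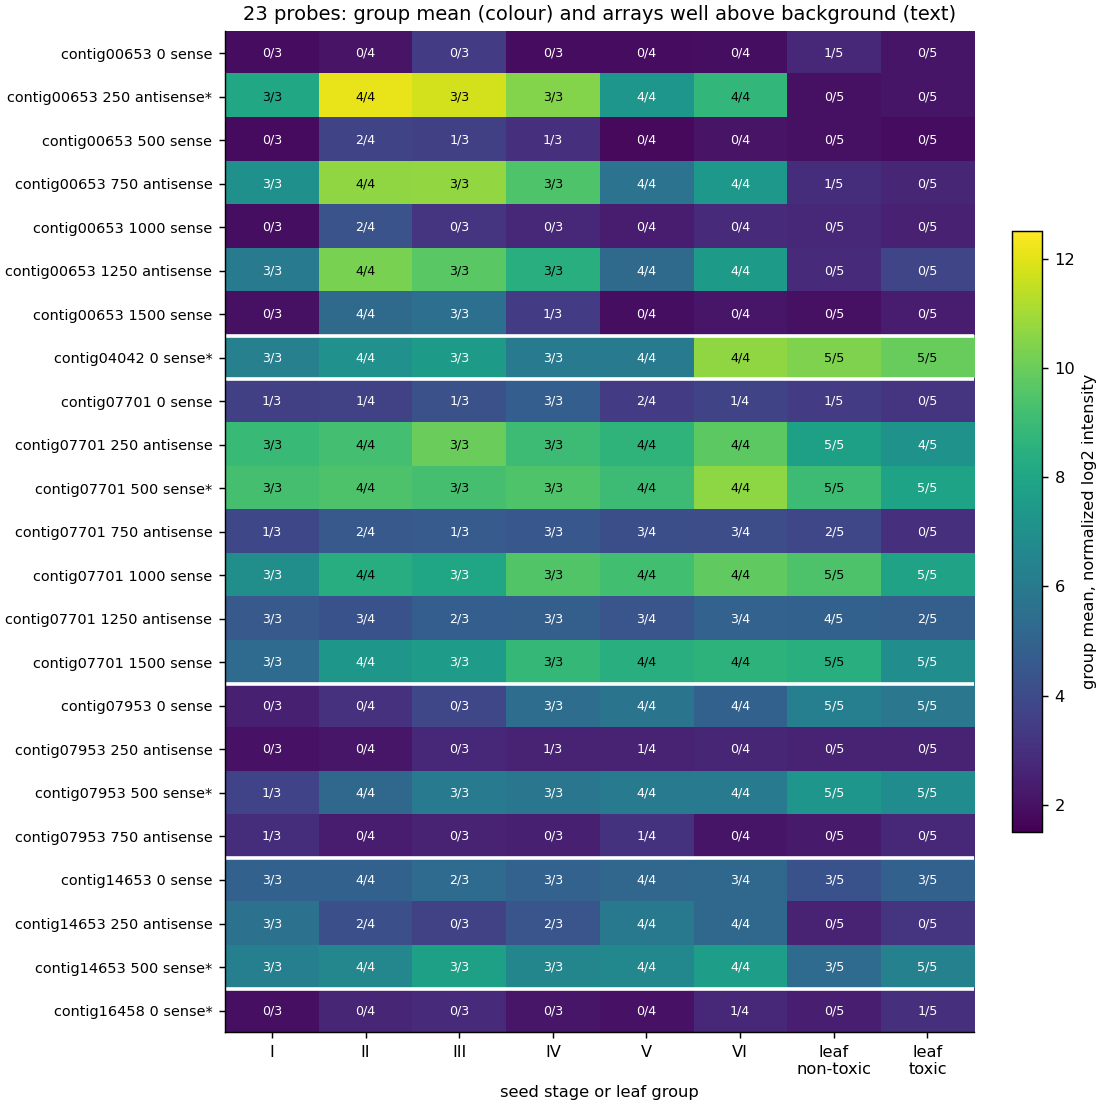
Group mean of all 23 probes (colour, normalized log2 intensity) by seed stage and leaf group (columns), with the number of arrays well above background of the arrays in the group written in each cell and the representative probe marked by an asterisk. Antisense probes carry the signal of contig00653, sense probes that of contig04042 and contig07953, and contig07701 holds both.

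Counts over the 6 contigs were as follows. Between stages I and VI, 3 contigs rose (contig04042, contig07701 and contig07953) and none fell, beside 23.9% of representative probes that rose and 23.1% that fell. From I to II contig00653 rose, beside 5.14%, and none fell, beside 4.03%. From II to III no contig passed, beside 9.73% that rose and 14.3% that fell, although 1 of the 23 probes rose (position 0 of contig00653, beside 6.52% of all probes) while undetected on each array of those stages. With slide as a block contig07953 was called at both of these steps (adjusted p = 0.0331 and 0.00724). From III to IV contig00653 and contig04042 fell, beside 6.2%, and none rose, beside 10.1%. From IV to V contig00653 fell, beside 3.33%, and none rose, beside 2.59%. At the last step, from V to VI, contig00653, contig04042 and contig07701 rose, beside 15.3%, and none fell, beside 16.6%. At the threshold of 1e-08, contig00653 rose from I to II, beside 0.0554%, and contig04042 from V to VI, beside 0.499%, and between I and VI, beside 2.67%. The median difference of the 6 contigs between stages I and VI was 1.39, and that of all representative probes 0.08. With 6 contigs these shares describe the members and cannot be set apart from the background.

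In leaf against seed, contig04042 and contig07953 rose, beside 32.4% of representative probes, and contig00653 and contig07701 fell, beside 31.5%. For contig07701 this is the representative probe, and its other bright sense probes did not differ between the tissues. Over all 23 probes, 3 rose (26.7% of all probes) and 9 fell (23.1%). Against dry seed alone, none rose, beside 27%, and contig00653 and contig07701 fell, beside 28.8%. For contig04042 and contig07953 the difference between leaf and dry seed did not pass. For contig07953 it passed with slide as a block, on slides 1 to 3 alone (0.61, adjusted p = 0.0395), in the deposited log2 table (0.95, adjusted p = 0.000518) and with the mean of the sense probes (1.05, adjusted p = 0.0435). At the threshold of 1e-08, contig04042 alone rose in leaf, beside 9.96%, and contig00653 alone fell, beside 9.57%. By its representative probe, the WSD1-like contig was the only member detected on all arrays of 1 tissue and on none of the other.

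**Figure D5:**
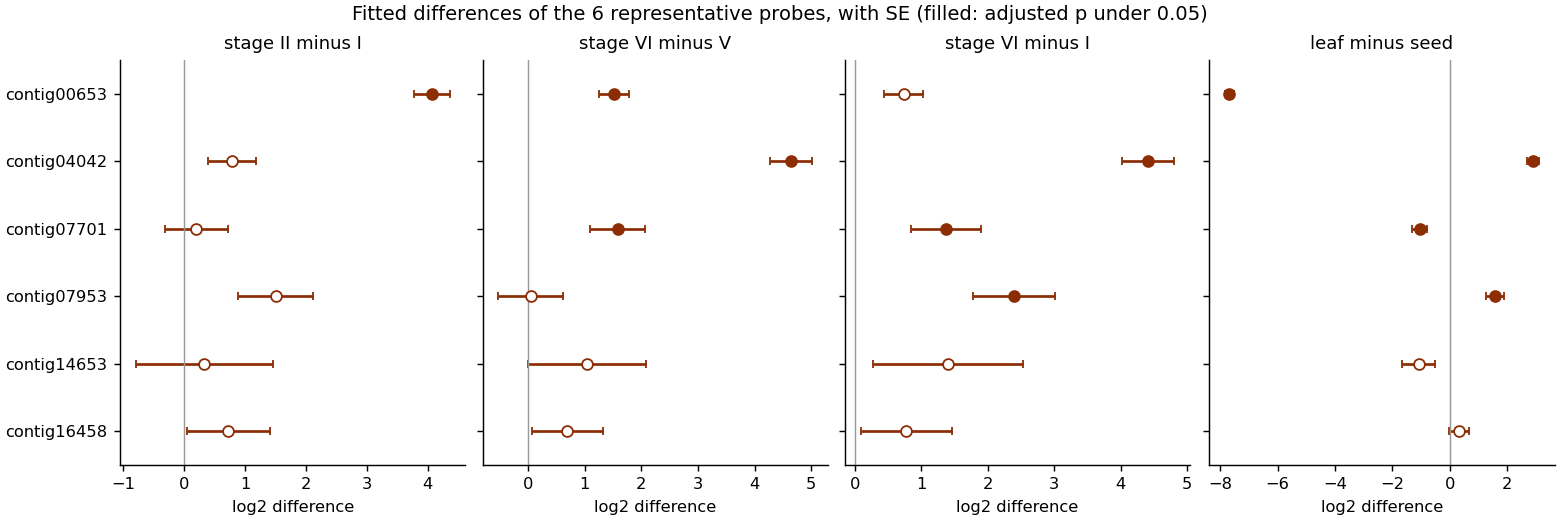
Fitted log2 difference with its SE (x axis) of the representative probe of each contig (y axis) for stage II minus I, VI minus V, VI minus I and leaf minus seed. Filled points have an adjusted p under 0.05. contig00653 moves most at the first step and between tissues (4.07 and -7.68), contig04042 most at the last step (4.65).

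The leaves of the toxic and the non-toxic accession were compared on 5 arrays each. No DGAT contig passed the limma test, beside 0.0151% of representative probes that were higher in the toxic accession and 0% that were lower, and 1 of the 6 had an unadjusted p under 0.05, as had 5 of the 23 probes and 3.87% of all probes. That contig was contig07701, whose representative probe measured 7.18, 8.00, 8.51, 7.47 and 8.23 in the toxic and 9.45, 8.39, 10.12, 10.23 and 6.94 in the non-toxic leaves. The groups overlapped, with 2 non-toxic arrays below the highest toxic one, and the difference was -1.15 (SE 0.43, unadjusted p = 0.0136, adjusted p = 1). Its probes at 1000 and 1500 differed by -1.58 and -1.55 (adjusted p = 0.751 and 0.688). On all 4 slides the toxic leaves were lower at position 500 (-2.27 to -0.39). The 5 probes with an unadjusted p under 0.05 were positions 500, 750, 1000 and 1500 of contig07701 and position 1250 of contig00653. They were thus mostly probes of 1 contig, and position 1250 of contig00653 was not detected on any leaf array. None of these differences passed over the whole array.

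Other steps of glycerolipid assembly, taken from the same enzyme annotation, are given by counts of representative probes, of which 23.9% rose and 23.1% fell between stages I and VI over the whole array. The acyltransferases upstream of DGAT transfer the first and second acyl group onto glycerol-3-phosphate. Of 11 glycerol-3-phosphate acyltransferase contigs 2 rose and 3 fell between stages I and VI, and of 8 lysophosphatidic acid acyltransferase contigs 4 rose and none fell. Of 3 phosphatidate phosphatase contigs, which supply diacylglycerol, 1 rose and none fell. Diacylglycerol kinase, which returns diacylglycerol to phosphatidate, had 13 contigs of which 5 rose and 3 fell, and triacylglycerol lipase, which breaks the oil down, 24 contigs of which 10 rose and 3 fell. The single 2-acylglycerol acyltransferase contig fell.

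Phospholipid:diacylglycerol acyltransferase (PDAT) makes triacylglycerol from the same diacylglycerol with a phospholipid as the acyl donor. Both of its contigs rose between stages I and VI and fell in leaf. contig02496 rose by 5.11 (SE 0.27, adjusted p = 6.46e-14) and contig13416 by 5.14 (SE 0.24, adjusted p = 9.49e-15). They had most of this rise by stage III, where the group means were 11.33 and 8.94 against 7.45 and 5.03 at stage I. At stage III contig00653 was still near its peak, and contig04042 rose after stage V.

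Over the 31 arrays, 2464 other contigs of the enzyme annotation were ranked by Pearson r with each member, as a description of likeness on shared arrays. Nearest to contig00653 were contig21555 (caffeoyl-CoA O-methyltransferase, of lignin precursor synthesis, r = 0.95) and contig05743 (sucrose synthase, which splits sucrose in sink tissues, r = 0.95). For contig04042 they were contig04197 (protein farnesyltransferase, 0.92) and contig12809 (ferrochelatase, of haem synthesis, 0.92). For contig07953 both were glucose-6-phosphate dehydrogenase contigs (contig15725 and contig19386, r = 0.87 each), which fell to 0.75 and 0.78 over the 24 arrays of slides 1 to 3. For contig14653 they were contig15490 (long-chain fatty acid CoA ligase, 0.92) and contig10054 (annotated with 2 acyltransferase activities, 0.84), with the slide pattern described above among the shared variation. Over slides 1 to 3 contig15490 was at 0.90 and contig10054 at 0.73. contig07701 (contig01005, 0.77, and contig07334, 0.76) and contig16458 (contig09341, 0.58, and contig07657, 0.53) had less similar neighbours. Over slides 1 to 3 these were at 0.67 and 0.75 for contig07701 and at 0.65 and 0.51 for contig16458. Between members the highest r over the 21 seed arrays was that of contig04042 with contig07701 (0.80), and over all 31 arrays the same pair was at -0.07.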

How the data were processed

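Total RNA of seeds and leaves was used to make Cy3-labelled cRNA, which was hybridised to a custom Agilent 8x60K array. The deposited scanner files hold, per spot, a processed signal intensity that the authors had obtained with Agilent Feature Extraction 10.5.1.1 and corrected for background by spatial detrending. The deposited series table holds the authors' own processed log2 values of the same arrays, which served as an alternative. Their methods name replicate spot averaging, log2 transformation, KNN imputation, quantile normalization and limma.

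The same steps were applied here to the processed intensity. Outlier spots were dropped, replicate spots averaged, values imputed from the 10 nearest probes (839 probes had a missing value) and quantile-normalized over 31 arrays. Limma 3.58.1 (R 4.3.3) fitted 8 group means, with tests two-sided and adjusted over all probes of a contrast. The processed signal is never below 0, so dim probes have a floor. Folds against groups not above background were set against the dimmest detected signal of each array, or the probe's own value where higher. They are not lower limits. The number of arrays limits the precision, and the array signal has no counting depth. Groups came from the labels, replicate numbers were given in sample order, and slides came from the scanner files. Replicates 1 to 3 of each group lay on slides 1 to 3, so that slide as a block is also a block on these numbers, and later replicates lay on slide 4. Named were all 6 members with every probe, PDAT contigs, other enzymes as counts, and the 2 contigs most like each member. Tissue markers were 5 seed and 10 leaf contigs. Members, lists and tests were chosen with earlier results of these data known. Alternatives were 75th-percentile scaling, normexp background correction (offset 50), seed arrays alone, slide as a block, slides 1 to 3 alone, the authors' table, a filter on dim probes, the mean of probes in one direction, the authors' threshold of 1e-08 and leaving out each array. The fit was tested on simulated data.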

Additional observations from a re-analysis of the deposited data

Results flagged for a closer look

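The representative probes were screened for an array far from the rest of its group, in the 5 groups of 4 or 5 arrays (30 tests). Chance alone gives such an array in about 1 in 20 groups, and 3 were found. contig16458 measured 6.38 on toxic leaf replicate 1, against 1.99 to 2.20 on the other 4 arrays of the group, and 4.45 on stage VI replicate 2, against 1.89 to 2.31 on the other 3. contig00653 measured 2.28 on non-toxic leaf replicate 1, against 1.88 to 1.98 on the other 4, all of them not well above background. No cause was tested.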

How the results depend on the processing

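No called difference of a contig changed direction under the alternatives run. At the threshold of 1e-08 the contigs higher at stage VI than at I went from 3 to 1, those higher and lower in leaf from 2 each to 1 each, and the calls over the 5 steps between neighbouring stages from 4 to 2 (higher) and from 3 to 0 (lower). Under every other alternative these counts stayed within 1.5 times, with 2 to 4 contigs higher at stage VI, 3 to 6 higher and 2 to 3 lower calls over the steps, 2 higher and 2 to 3 lower in leaf, and none between the leaf groups (seed arrays alone gave no leaf values). Leaving out 1 array in turn gave 2 to 4 contigs over the stages, 2 to 4 higher at stage VI, and 3 to 4 higher and 2 to 3 lower calls over the steps. With slide as a block, 6 higher calls over the steps and 4 contigs higher at stage VI were found, the added ones being contig07953 and contig14653. Replicate numbers 1 to 3 are the slide numbers, so the slide block is also the replicate block. The difference of contig00653 between stages VI and I passed with normexp background correction (0.60, adjusted p = 0.0436), the filter on dim probes (adjusted p = 0.0493) and the mean of its antisense probes (0.84, adjusted p = 0.0309). The leaf to seed difference of contig00653 ranged from -7.80 to -3.91 over the alternatives other than leaving out arrays. Scaling to the 75th percentile moved the median difference of all probes from 0.09 to 0.35 between stages I and VI and from 0.05 to -0.20 between leaf and seed. In the authors' log2 table these medians were 0.12 and 0.17. contig16458 had no value under the filter on dim probes. Its signal, near background, limits what can be said of it.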

Other observations

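Over all 57842 probes the median size of the mean deviation of a slide's arrays from their group means was 0.39 on slide 4 and 0.14 to 0.18 on slides 1 to 3 in the values normalized here. In the deposited log2 table it was 0.02 on slide 4 and 0.08 to 0.10 on the others.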
